A study of Danio rerio with 24 samples.

Results

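The eyes of zebrafish (AB line) exposed to mebendazole (MBZ) were compared with the eyes of zebrafish exposed to BBC, each at 0.3 μM for 36 h. Both exposures began at 48 hpf and ended at 84 hpf, when the eyes were collected and pooled, and each pool gave the RNA of a single array. The comparison was chosen by the labels of the arrays, which name the compound, the hours of exposure, and a replicate number. It holds 8 of the 24 arrays of the series, 4 for each compound, and the other 16 belong to exposures of 12 and 24 h. All samples come from the same line and differ in nothing else that the labels state. BBC is the control at each exposure time, so that a solvent-only group is not part of the comparison. The labels do not say whether the 4 pools of a compound came from separate clutches. The p values rest on the spread between pools of the same condition over all 24 arrays, not at 36 h alone. This spread may be partly technical.

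MBZ is an anthelmintic benzimidazole that binds tubulin at the colchicine site and prevents microtubules from growing. BBC carries the benzimidazole carbamate and the benzoyl group of MBZ and differs from it by a butyl ester on the benzoyl ring. Microtubules form the mitotic spindle of dividing cells and the tracks along which neurons move cargo in their axons. During the exposure the layers of the zebrafish retina form, retinal ganglion cells extend axons through the optic nerve, photoreceptors mature, and lens fibre cells fill with crystallins. Macrophages enter the eye early and become the microglia that engulf dying cells.

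The level of a gene is given throughout on the log2 scale, as its signal after background correction relative to the 75th percentile over the probes of that array. A level of 0 therefore lies at that percentile, a difference of 1 is a 2-fold change, and levels are compared between arrays and not between genes. Calls were made in limma at a false discovery rate of 0.20 and are meant by every "rose" or "fell". The study used the same threshold, but with another test (RankProd) and a stricter filter of the probes. A gene is represented by its brightest tested probe. The markers fixed for the eye, 12 of which could be found by name on the array, were above background on all 8 arrays, among them *opn1lw2* and *gnat2* of cones, *crx* of photoreceptors, *mipa* and *cryaa* of the lens, *rpe65a* of the retinal pigment epithelium, *pou4f2* of ganglion cells, and *glula* of Müller glia. On the 8 arrays, the 75th percentile of the signal ranged from 879.8 to 1414 and the share of probes well above background from 68.2% to 76.7%. Replicates 1 and 2 of both compounds lay on 1 slide (slide 5) and replicates 3 and 4 on another (slide 6). Positions 1 and 3 of each slide held BBC and positions 2 and 4 MBZ, and effects of the position therefore cannot be told apart from those of the compound. Setting slide 6 against slide 5 called 3880 probes (12.3%), more than MBZ against BBC, and for this reason values within each slide are given beside the results they touch.

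Of 31506 tested probes, 1770 (5.62%) were called between the compounds, 1000 higher (3.17%) and 770 lower (2.44%) in eyes exposed to MBZ. Of 9739 tested genes, 616 (6.33%) were called, 455 higher (4.67%) and 161 lower (1.65%). At an adjusted p under 0.05, 331 probes (1.05%) and 114 genes (1.17%) passed. Most of these differences were small. The median log2 fold change was 0.41 among the genes that rose, of which 26 rose at least 2-fold, and the median size was 0.51 among the genes that fell, of which 24 fell at least 2-fold. The 4 MBZ levels lay above all 4 BBC levels in 248 of the 455 genes that rose and in 376 of all tested genes (3.86%). They lay below in 86 of the 161 genes that fell and in 218 of all tested genes (2.24%). These calls come from a fit of all 24 arrays, which share 1 estimate of the spread. The median SD within a condition was 0.214 for MBZ and 0.184 for BBC at 36 h, against 0.16 and 0.132 at 12 h. A fit of the 8 arrays alone called 141 probes (0.448%) and 52 genes (0.534%), which held 38 of the 455 and 12 of the 161. Without MBZ replicate 3 the fit of all arrays called 636 probes, and without MBZ replicate 4 it called 3634.

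Among the genes with the largest rises were transcription factors of the bZIP family, which respond to cellular stress and to cAMP, and the hormone gene *ghrh*, described with the neuropeptides. The gene *cremb*, a relative of the cAMP-responsive element modulator, had levels of -0.51, 0.34, 0.05, and 0.2 in MBZ replicates 1 to 4 and of -2.38, -2.69, -2.47, and -2.65 in BBC replicates 1 to 4. The gap between the compounds was far wider than the spread within either of them, and *cremb* rose 5.94-fold (log2 fold change 2.57, SE 0.17, limma adjusted p = 1.21e-08). The stress-induced repressor *atf3* had levels of 2.33, 2.97, 2.63, and 2.99 in MBZ eyes and of 0.29, 0.42, 0.63, and 0.34 in BBC eyes. It rose 4.96-fold (2.31, SE 0.15, adjusted p = 1.21e-08). In both genes MBZ replicate 1 was the lowest of the MBZ arrays and still lay above every BBC array, and both were also called in the fit of 8 arrays (adjusted p = 0.00533 for each).

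Of the other genes with large rises, *cbx7a* encodes a chromobox protein of the Polycomb complex. Its levels were 1.13, 2.39, 2.01, and 1.87 in MBZ eyes and -0.39, -0.69, 0.25, and -0.34 in BBC eyes, without overlap, and it rose 4.41-fold (2.14, SE 0.21, adjusted p = 6.27e-06). Both of its probes were called. The stathmins are phosphoproteins that bind tubulin dimers, and *stmn4l* rose 2.91-fold (1.54, SE 0.14, adjusted p = 4.92e-06). Its levels were 3.1, 3.17, and 3.13 on the 3 MBZ arrays with an even spot and between 1.41 and 1.88 on the BBC arrays. Its paralog *stmn4* rose 4.14-fold (2.05, SE 0.27, adjusted p = 0.000363), where only MBZ replicates 2 and 4 had an even spot, at 0.03 and -0.27, against -2.25 to -2.12 in BBC eyes. In the list of tubulins, stathmins, and microtubule proteins only *katna1*, the severing enzyme katanin, also rose (0.26, SE 0.09, adjusted p = 0.184), and it lost its call without each of 6 of the 8 arrays. Thus 3 of 36 tested members rose and none fell, with 2 to 6 higher when an array was left out (6 without MBZ replicate 4) and 2 lower without MBZ replicate 1.

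**Figure D1:**
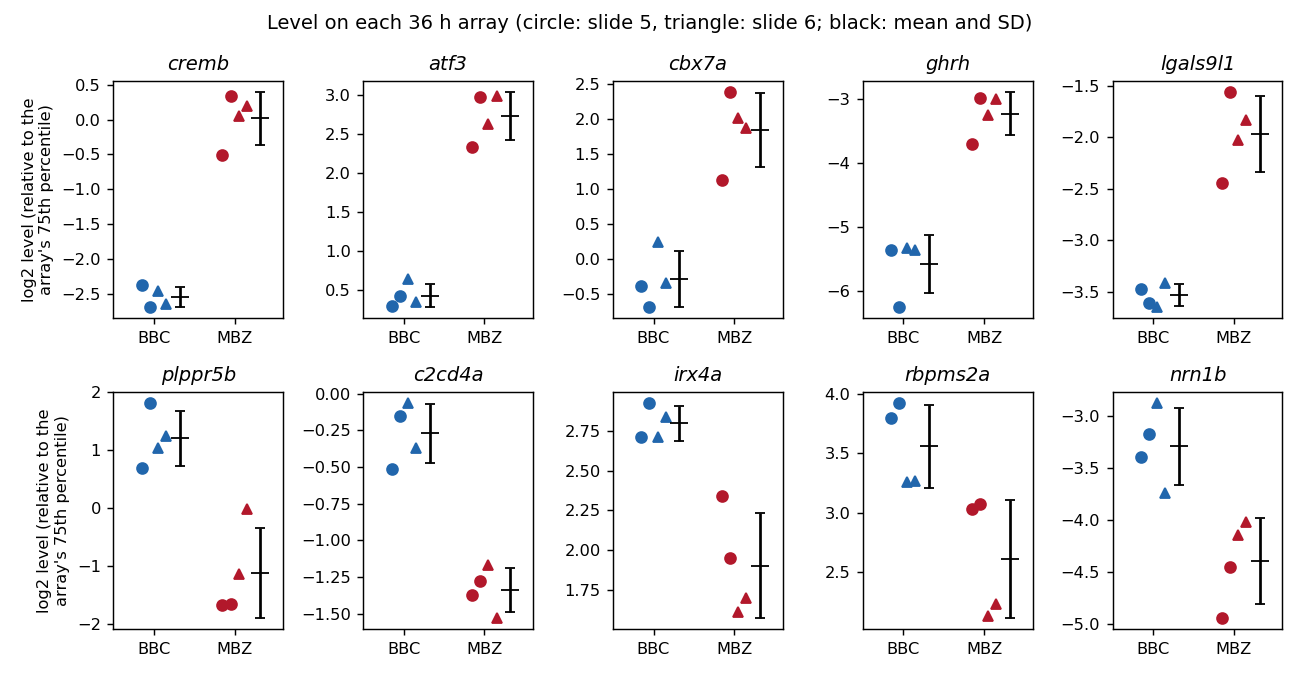
Level of 10 genes on each of the 8 arrays, on the log2 scale with the 75th percentile of each array at 0, with the mean and SD of each compound in black, circles for slide 5 and triangles for slide 6. In each gene all 4 MBZ arrays lie on 1 side of all 4 BBC arrays, as for *cremb* with BBC levels from -2.69 to -2.38 and MBZ levels from -0.51 to 0.34.

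The immediate early genes are switched on within minutes of a stimulus, and their products include the AP-1 factors Fos and Jun, the Gadd45 proteins, and phosphatases that dampen MAP kinases. Of 47 tested members of this list, 17 rose (36.2%) and none fell, and the median log2 fold change was 0.15, beside 0.02 over all tested genes. The AP-1 gene *fosab* rose 2.26-fold (1.18, SE 0.14, adjusted p = 5.5e-05), with MBZ levels from 0.52 to 1.18 and BBC levels from -0.53 to -0.09, and all 5 of its probes were called. The gene *jun* rose 1.95-fold (0.96, SE 0.12, adjusted p = 8.01e-05), from levels of 3.07 to 3.68 in BBC eyes to 4.08 to 4.57 in MBZ eyes. In both genes the groups did not overlap. The small GTPase gene *rrad* rose 1.99-fold, the prostaglandin synthase gene *ptgs2b* 1.65-fold, *gadd45ba* 1.59-fold, *gadd45aa* 1.52-fold, *gadd45bb* 1.4-fold, *junbb* 1.37-fold, and the phosphatase gene *dusp4* 1.31-fold. Not called were, among others, *egr3* (0.16), *nr4a1* (0.13), *junba* (0.13), *fosl2* (0.06), and *dusp1* (-0.2). Nor was *egr1*, which was at -1.3 in MBZ replicate 1 and between -6.32 and -5.73 in the other MBZ replicates. The mean of the list over its members, relative to the mean of 24 arrays, lay between 0.34 and 0.39 in MBZ eyes and between -0.01 and 0.09 in BBC eyes. Between 11 and 19 members were called when an array was left out in turn, the fewest without BBC replicate 2 or MBZ replicate 3, and 6 were called in the fit of 8 arrays.

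Genes of apoptosis and its regulators rose in 10 of 43 tested members (23.3%) and fell in none, with a median log2 fold change of 0.11. The proapoptotic BH3-only gene *bbc3* had levels of 0.34, 1, 0.72, and 1.18 in MBZ eyes and of -0.41, -0.34, -0.41, and -0.69 in BBC eyes. It rose 2.41-fold (1.27, SE 0.19, adjusted p = 0.000707). The ubiquitin ligase gene *mdm2* rose 1.82-fold (0.86, SE 0.1, adjusted p = 4.84e-05), with MBZ levels from 1.74 to 2.05 and BBC levels from 0.99 to 1.19. The cyclin G gene *ccng1* rose 1.71-fold (0.77, SE 0.09, adjusted p = 8.43e-05), and all 3 of its probes were called. These 3 genes had no overlap between the compounds and kept their call when any single array was left out. The initiator caspase gene *casp8* rose 1.51-fold (0.59, SE 0.15, adjusted p = 0.0633), but was not called without BBC replicate 2. Smaller rises were called for *phlda3* (0.5), for the pore-forming *baxb* (0.46) and *baxa* (0.22), and for the stress sensor *sesn1* (0.2). Of these, *phlda3* was not called without MBZ replicate 2 or 3 and *baxb* without BBC replicate 2, while *baxa* lost its call without any of 3 arrays and *sesn1* without any of 5. The count over the list ranged from 4 to 14 with an array left out.

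Genes of macrophages, microglia, and phagocytes held the highest share of called members among the lists examined. Members and lists were chosen with earlier results of these data known, so this ranking is descriptive only. Of 57 tested members, 25 rose (43.9%) and 1 fell (1.75%), and the median log2 fold change was 0.28, with 0.33 within slide 5 and 0.26 within slide 6. The mean of the list lay between 0.27 and 0.46 in MBZ eyes and between -0.03 and 0.13 in BBC eyes. The galectin gene *lgals9l1* had levels of -2.44, -1.56, -2.03, and -1.83 in MBZ eyes and of -3.47, -3.61, -3.65, and -3.41 in BBC eyes, and rose 2.96-fold (1.57, SE 0.18, adjusted p = 4.84e-05). The gene *havcr1*, whose mammalian product is a receptor for phosphatidylserine on dying cells, rose 2.2-fold (1.14, SE 0.17, adjusted p = 0.000637), with MBZ levels from -0.36 to 0.51 and BBC levels from -1.25 to -0.82. Neither gene overlapped between the compounds. The amino acid transporter gene *slc7a7*, which zebrafish microglia need to form, rose 1.79-fold (0.84, SE 0.11, adjusted p = 0.000268), and its MBZ levels of -0.64 to -0.22 lay above its BBC levels of -1.35 to -1.15.

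Lysosomal proteases and general macrophage markers were among the genes that rose. The cathepsin L gene *ctsl.1* rose 2.03-fold (1.02, SE 0.17, adjusted p = 0.00203), the cathepsin S gene *ctss2.1* 1.49-fold (adjusted p = 0.0516), and the cathepsin C gene *ctsc* 1.42-fold (adjusted p = 0.0215). The perforin-like gene *mpeg1.1*, the marker most used for zebrafish macrophages, had levels of -0.99, -0.44, -0.82, and -0.53 in MBZ eyes and of -1.2, -1.21, -1.28, and -1.2 in BBC eyes (0.52, SE 0.14, adjusted p = 0.0755). Its BBC arrays lay close together and below all MBZ arrays. The chemerin receptor gene *cmklr1* (0.74), the leukocyte coronin gene *coro1a* (0.37), and the adaptor gene *tyrobp* (0.36) were also called higher, but each lost the call without some arrays, from 2 of the 8 for *cmklr1* and *coro1a* to 5 for *tyrobp*. The kinase gene *syk* was the member that fell (-0.32, SE 0.09, adjusted p = 0.0885), and it was not called with quantile normalization. In the fit of 8 arrays 6 members were called, and between 16 and 28 with an array left out. The arrays hold RNA of whole eyes, in which fewer cells of a type and less RNA per cell cannot be told apart, and the same holds for more of either.

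The short list of neutrophil genes had no called member in limma among 4 tested, with 1 at an unadjusted p under 0.05 and *mpx* at -0.15 (SE 0.18). Of the genes for MHC class I, the immunoproteasome, and interferon, 4 of 26 rose and 1 fell, with a median of 0.2. The interferon regulatory factor genes rose most, *irf1b* by 1.08 (SE 0.16, adjusted p = 0.00088) and *irf9* by 0.83 (SE 0.12, adjusted p = 0.000608), both without overlap. The other calls were *xaf1* (0.52) and *b2m* (0.3), which overlapped between the compounds, and the antiviral *mxc*, which was lower (-0.35). Between 2 and 8 members were higher with an array left out, the most without BBC replicate 3.

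Müller glia span the retina and react to injury by a stress and inflammatory programme. Of 42 tested members of the Müller glia and injury list, 9 rose (21.4%) and none fell, with a median of 0.11. The cytokine-signalling inhibitor gene *socs3a* rose 1.85-fold (0.89, SE 0.21, adjusted p = 0.0388), with levels of -0.5, 0.16, 0.81, and 0.58 in MBZ eyes and -1.04, -0.88, -0.13, and -0.48 in BBC eyes. Here slide 6 lay above slide 5 in both compounds, so that the groups overlapped, while the change was 0.78 within slide 5 and 0.99 within slide 6. The chaperone gene *clu* rose 1.74-fold (adjusted p = 0.0225), the tumour necrosis factor gene *tnfb* 1.62-fold (adjusted p = 0.0291), *stat3* 1.52-fold (adjusted p = 0.0829), and the glutamine synthetase gene *glula* 1.42-fold (adjusted p = 0.0691). Of the 4 probes of *stat3*, 2 were called, and *clu* and *glula* overlapped between the compounds. Members of the list that were not called include *gfap* (0.02), *glulb* (-0.03), *slc1a3a* (0.13), *aqp4* (-0.58), *ascl1a* (-0.06), and *mmp9* (0.15). None of the 9 members was called in the fit of 8 arrays, and between 4 and 13 were called with an array left out.

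**Figure D2:**
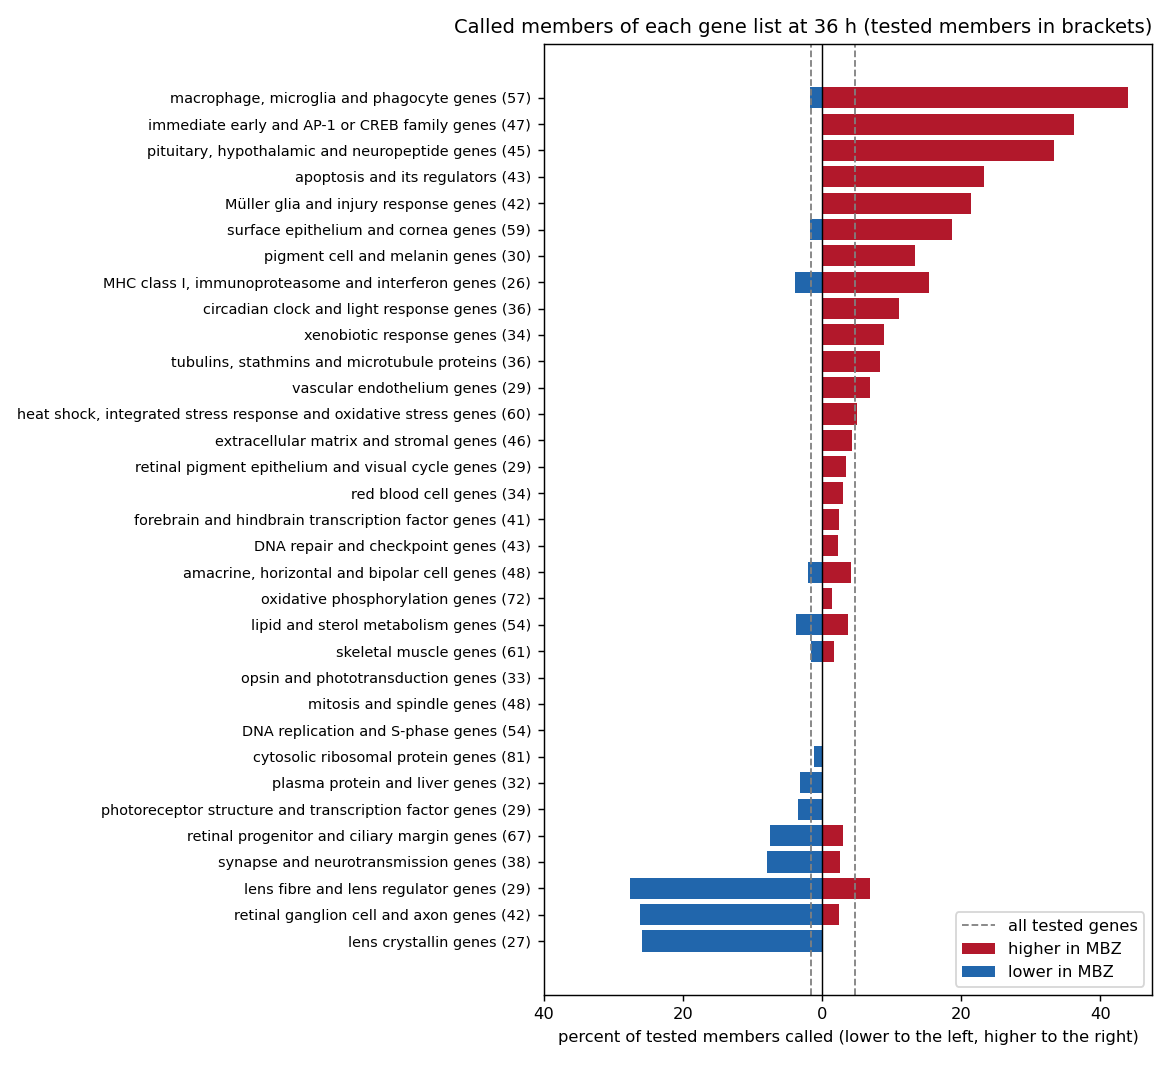
Share of the tested members of each gene list that was called higher (right, red) or lower (left, blue) in MBZ eyes, in percent, with the number of tested members in brackets. Dashed lines mark the shares over all tested genes, 4.67% higher and 1.65% lower. Lists of 12 or fewer tested members are not drawn. Members and lists were chosen with earlier results of these data known, so the shares are descriptive only.

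Some genes of retinal ganglion cells and their axons fell. These neurons are the first to be born in the retina and send its output to the brain. Of 42 tested members, 11 fell (26.2%) and 1 rose (2.38%), and the median log2 fold change was -0.17, with -0.29 within slide 5 and -0.1 within slide 6. The mean of the list lay between -0.4 and -0.2 in MBZ eyes and between -0.08 and 0.15 in BBC eyes. The largest fall was that of *plppr5b*, which encodes a membrane protein related to lipid phosphatases and found in neurites. Its levels were -1.67, -1.66, -1.13, and -0.01 in MBZ eyes and 0.69, 1.82, 1.03, and 1.24 in BBC eyes, and it was 4.97-fold lower (-2.31, SE 0.28, adjusted p = 8.17e-05). MBZ replicate 4 stood nearest to the BBC arrays without reaching them.

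The RNA-binding protein genes *rbpms2a* and *rbpms2b*, which mark ganglion cells in vertebrate retinas, were 1.93-fold (-0.95, SE 0.23, adjusted p = 0.0493) and 1.5-fold lower (-0.59, SE 0.13, adjusted p = 0.0265). The levels of *rbpms2a* were 3.03, 3.07, 2.13, and 2.23 in MBZ eyes and 3.8, 3.93, 3.26, and 3.27 in BBC eyes. Slide 6 was lower than slide 5 in both compounds, and within each slide the MBZ arrays lay below the BBC arrays. The POU-domain factor gene *pou4f2*, on which ganglion cells depend in mice, was 1.5-fold lower (-0.58, SE 0.14, adjusted p = 0.0467), with levels of -1.24 to -0.8 against -0.7 to -0.23. Among the other transcription factors of the list, *irx4a* (-0.89, SE 0.15, adjusted p = 0.00374), *irx4b* (-0.99, SE 0.23, adjusted p = 0.0368), and *isl2a* (-0.47, SE 0.11, adjusted p = 0.0422) fell, and these 3 genes and both *rbpms2* genes kept their call when any single array was left out.

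The other members that fell were the neuritin gene *nrn1b* (-1.09, SE 0.3, adjusted p = 0.0863), *klf7a* (-0.8, adjusted p = 0.192), the synuclein gene *sncga* (-0.51, adjusted p = 0.0839), and the neurofilament gene *neflb* (-0.41, adjusted p = 0.155). The calls of *klf7a* and *neflb* were each lost without any of 5 arrays. The only member called higher was *eomesa*, a T-box factor gene of some ganglion cell types (0.34, SE 0.11, adjusted p = 0.151), and it overlapped between the compounds. The gene *elavl4* was not called by its brightest probe (0.37, adjusted p = 0.415), but 2 of its 3 probes were called higher. Members that were not called include *elavl3* (-0.07), *alcama* (-0.05), and *sncb* (0.05). Outside the list, *pou4f4* was 1.69-fold lower (-0.76, SE 0.13, adjusted p = 0.00335). Of the list, *plppr5b*, *rbpms2b*, and *irx4a* were called in the fit of 8 arrays (adjusted p = 0.115, 0.177, and 0.149), and 8 to 14 members fell with an array left out.

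Among the largest falls without overlap between the compounds were further genes outside these lists. The C2-domain protein gene *c2cd4a* had levels of -1.37, -1.28, -1.17, and -1.53 in MBZ eyes and of -0.51, -0.15, -0.06, and -0.37 in BBC eyes and was 2.09-fold lower (-1.07, SE 0.12, adjusted p = 2.9e-05), also in the fit of 8 arrays (adjusted p = 0.0274). The gene *btr12*, which encodes a tripartite motif protein, was 2.09-fold lower (-1.06, SE 0.19, adjusted p = 0.00569), with -1.56 within slide 5 and -0.57 within slide 6. The gene *asic4b* of the acid-sensing ion channel family (-0.94, SE 0.19, adjusted p = 0.0167) and the histone acetyltransferase gene *kat2b* (-0.96, SE 0.25, adjusted p = 0.0717) also fell, and *kat2b* was not called without MBZ replicate 3.

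Few members of the other lists of retinal neurons were called, and their counts depended on single arrays. Of 48 tested genes of amacrine, horizontal, and bipolar cells, 2 rose and 1 fell, with a median of -0.08. With an array left out, 0 to 2 were higher and 0 to 6 lower, the most without BBC replicate 3. Of 38 synapse and neurotransmission genes, 1 rose and 3 fell, among them the potassium channel-interacting protein genes *kcnip3b* (-0.77, SE 0.19, adjusted p = 0.058) and *kcnip3a* (-0.73, SE 0.16, adjusted p = 0.0239), neither of which overlapped between the compounds. With an array left out, 0 to 3 of the synapse genes were higher and 2 to 4 lower. Of 67 genes of retinal progenitors and the ciliary margin, 2 rose and 5 fell, with a median of -0.04. Those that fell were the eye-field factor genes *rx2* (-0.39), *six6a* (-0.32), and *six6b* (-0.3), and *hmx4* (-0.33) and *tbx2a* (-0.29), each with 4 MBZ arrays below 4 BBC arrays. Between 1 and 10 members of that list were lower with an array left out, the fewest without BBC replicate 4 and the most without BBC replicate 3, and 19 were lower without BBC replicate 3 and MBZ replicate 1 together, the arrays of lowest weight at 36 h, an alternative chosen after the data were seen. None was called in the fit of 8 arrays.

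Of 33 opsin and phototransduction genes, limma called none, and 2 had an unadjusted p under 0.05. The cone and rod transducin genes *gnat2* and *gnat1* were at -0.16 (SE 0.26) and -0.23 (SE 0.23). The median was -0.12, and it was -0.46 within slide 5 and 0.18 within slide 6. The mean of this list was 1.33, 1.86, 2.35, and 2.17 in MBZ eyes and 2.04, 1.97, 2.46, and 1.68 in BBC eyes, so that MBZ replicate 1 was the lowest of all and the compounds overlapped. Of 29 genes of photoreceptor structure and transcription, only *thrb*, the thyroid hormone receptor of red cones, was called (-0.51, SE 0.17, adjusted p = 0.158), by 2 of its 4 probes. Between 0 and 5 members were lower with an array left out, 5 of them without BBC replicate 3.

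**Figure D3:**
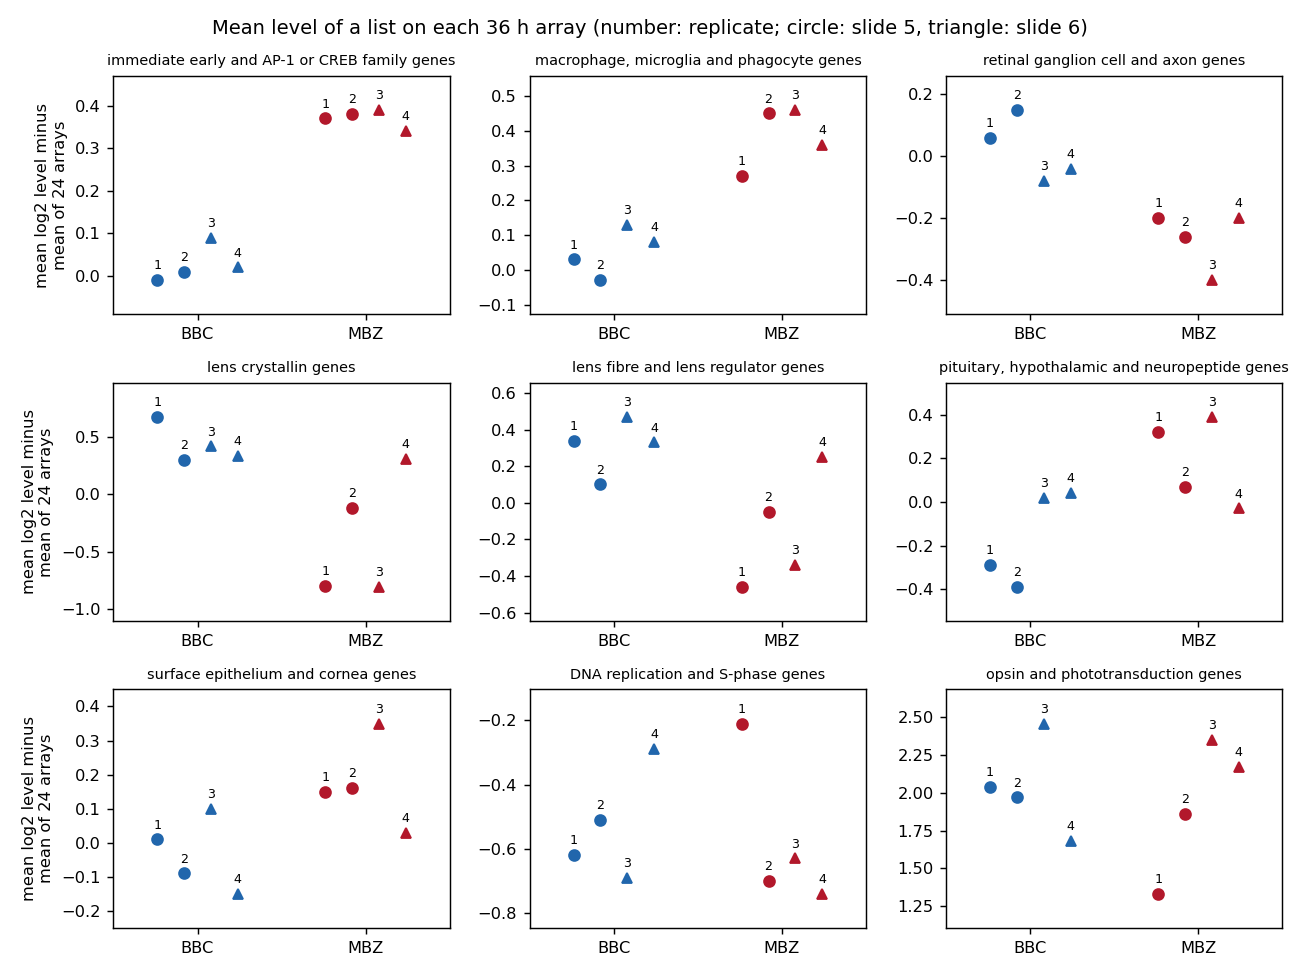
Mean level of 9 gene lists on each of the 8 arrays, on the log2 scale and relative to the mean of each gene over 24 arrays, with the replicate number beside each point, circles for slide 5 and triangles for slide 6. The compounds are apart in the immediate early, macrophage, and ganglion cell lists, while in the lens lists MBZ replicate 4 lies among the BBC arrays, at 0.31 for the crystallins.

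Many genes of the lens were lower in MBZ eyes, by larger changes than those of ganglion cells but less evenly between the arrays. Crystallins are the soluble proteins that give the lens its refractive power. Of 27 tested crystallin genes, 7 fell (25.9%) and none rose, and 26 had a negative log2 fold change, with a median of -0.76. The mean of the list was -0.8, -0.12, -0.81, and 0.31 in MBZ eyes and 0.68, 0.3, 0.42, and 0.34 in BBC eyes. MBZ replicate 1 on slide 5 and MBZ replicate 3 on slide 6 were low, MBZ replicate 2 was in between, and MBZ replicate 4 was not below BBC replicate 2. The low replicates 1 and 3 had 425 and 440 probes with uneven spots, against 51 and 15 for MBZ replicates 2 and 4. What part that plays was not tested. The median was -0.84 within slide 5 and -0.53 within slide 6.

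The called crystallin with the smallest adjusted p was *cryba2b* (-1.44, SE 0.2, adjusted p = 0.000608), at 4.9 and 5.1 in MBZ replicates 1 and 3 and 6.35 to 6.5 in BBC eyes. Its spots on MBZ replicates 2 and 4 were uneven and left out, and those that remained belong to the arrays with the lowest crystallins. The gamma crystallin gene *crygm2f* was 2.68-fold lower (-1.42, SE 0.44, adjusted p = 0.125), with 0.01, 0.96, 0.39, and 2.17 in MBZ eyes and 2.57, 1.87, 2.46, and 2.33 in BBC eyes, and the groups overlapped. The genes *crygmxl2* (-0.98, adjusted p = 0.173), *crybb1l2* (-0.79, adjusted p = 0.165), *crygn2* (-0.76, adjusted p = 0.0834), and *cryba4* (-0.49, adjusted p = 0.117) did not overlap between the compounds. Between 1 and 17 crystallin genes were called with an array left out, and 4 were called without both 36 h arrays of the lowest array weight, BBC replicate 3 and MBZ replicate 1.

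In the list of lens fibre and lens regulator genes, the members that fell were lowest in the same MBZ replicates, 1 and 3. Of 29 tested members, 8 fell (27.6%) and 2 rose (6.9%), and the median was -0.49. The beaded filament gene *bfsp2* was 2.67-fold lower (-1.41, SE 0.5, adjusted p = 0.185), with levels of 1.32, 2.32, 1.51, and 3.03 in MBZ eyes and 3.79, 2.89, 3.48, and 3.68 in BBC eyes. The lens water channel genes *mipa* (-0.58, SE 0.16, adjusted p = 0.0907) and *mipb* (-0.49, SE 0.16, adjusted p = 0.158), the membrane protein gene *lim2.3* (-0.92), the calpain gene *capn3a* (-0.99), and *lctlb* (-1.04) also fell. Of these, both water channel genes had all MBZ arrays below all BBC arrays. The members that rose were the small heat shock protein gene *hspb15* (1.12, SE 0.27, adjusted p = 0.0525) and *vim* (0.4, adjusted p = 0.0737), which encodes vimentin, a filament protein of many cell types besides lens cells. Regulator genes of the list that were not called include *foxe3* (0.08), *mafba* (0.16), *sox1a* (0.13), and *mafa* (-0.04). In *foxe3* and *sox1a* MBZ replicate 4 was the lowest of the MBZ arrays. No member of the list was lower by the test without MBZ replicate 3, and 15 were without MBZ replicate 4, while 1 was without BBC replicate 3 and MBZ replicate 1 together. None was called in the fit of 8 arrays. The amount of lens tissue in each pool was not measured, and its part in these values was not tested.

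Lists of tissues that lie around or beside the eye also moved. Of 45 pituitary, hypothalamic, and neuropeptide genes, 15 rose (33.3%) and none fell, with a median of 0.33, which was 0.46 within slide 5 and 0.09 within slide 6. The mean of the list was 0.32, 0.07, 0.39, and -0.03 in MBZ eyes and -0.29, -0.39, 0.02, and 0.04 in BBC eyes. The groups overlapped, since BBC replicates 3 and 4 stood above MBZ replicate 4. The growth hormone-releasing hormone gene *ghrh* rose most, from levels of -5.35, -6.25, -5.32, and -5.35 in BBC eyes to -3.7, -2.98, -3.25, and -3 in MBZ eyes (2.33, SE 0.39, adjusted p = 0.00263). It was called in the fit of 8 arrays and in each of the 20 alternatives in which it was measured, and the log2 fold change there ranged from 0.8 to 2.65.

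The other members that rose encode hormones and neuropeptides of the hypothalamus, the pituitary, and the brain, and some, among them *npy* and *sst1.1*, are also known from amacrine cells. The rises were 0.97 for *pth2* (adjusted p = 0.0207), 0.73 for *gnrh2* (adjusted p = 0.0396), 0.64 for *trh* (adjusted p = 0.0579), and 0.61 for *oxt* (adjusted p = 0.0814), and for *pth2* and *gnrh2* 1 of 2 probes was called. The thyrotropin subunit gene *tshba* rose by 0.96 (adjusted p = 0.177), with 1.69 within slide 5 and 0.23 within slide 6, and lost its call without any of 5 arrays. The genes *npy* (0.56), *sst1.1* (0.47), *crhb* (0.46), *hcrt* (0.44), and the secretogranin gene *scg2b* (0.44) were called without overlap between the compounds. Members that were not called include *gh1*, *prl*, *pomca*, and *cga*, which were higher within slide 5 and lower within slide 6. Their changes were 2.02 and -0.3, 1.01 and -0.35, 1.18 and -0.72, and 1.55 and -1.35. Also not called were *avp* (0.04), *chga* (0.05), and *pomcb* (-0.34). Only 4 members were called without MBZ replicate 3 and 2 in the fit of 8 arrays. Of the transcription factors of the forebrain and hindbrain, which mark brain tissue, *dlx2a* alone rose (0.36, adjusted p = 0.157) among 41 tested, and their mean was 0.11 in MBZ replicate 1 and between -0.56 and -0.38 in the other MBZ replicates. The part of brain tissue in the neuropeptide genes was not tested.

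Of 59 surface epithelium and cornea genes, 11 rose (18.6%) and 1 fell (1.69%), with a median of 0.2. The tight junction gene *cldn7a* had levels of 0.33, 0, 1.4, and 0.3 in MBZ eyes and of -1.34, -1.53, 0.24, and -1.09 in BBC eyes and rose 2.71-fold (1.44, SE 0.3, adjusted p = 0.0199). Replicate 3 was the highest of both compounds, and the groups overlapped through it. The genes *tmem45b* (0.62, adjusted p = 0.0172) and *rab25a* (0.63, adjusted p = 0.111) also rose, and the epidermal factor gene *znf750* was lower (-0.64, adjusted p = 0.114). The mean of the list was 0.15, 0.16, 0.35, and 0.03 in MBZ eyes and 0.01, -0.09, 0.1, and -0.15 in BBC eyes. Between 4 and 19 members were higher with an array left out, the fewest without BBC replicate 2 or MBZ replicate 3 and the most without BBC replicate 3. None was called in the fit of 8 arrays, and the part of skin in these values was not tested.

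Lists of other tissues showed few calls and, in several cases, large differences between pools of the same compound. Of 61 skeletal muscle genes 1 rose and 1 fell, with a median of -0.21 and a mean between 0.35 and 1 in MBZ eyes and between 0.72 and 1.3 in BBC eyes. Of 12 cardiac muscle genes 1 fell, the troponin gene *tnnc1a* (-1.67, SE 0.57, adjusted p = 0.173), at -6.85 in MBZ replicate 2 and between -4.01 and -2.15 on the other 7 arrays, and it was not called without that replicate. The median of 32 plasma protein and liver genes was 1.29 within slide 5 and -1.29 within slide 6, opposite changes of equal size. Of 34 red blood cell genes 1 rose, of 30 pigment cell genes 4 rose, of 29 genes of the retinal pigment epithelium 1 rose, of 29 vascular genes 2 rose, and of 46 extracellular matrix genes 2 rose. Over all tested genes 4.67% rose, and of these shares only that of pigment cells lies well above it. With an array left out, the members that were higher numbered 0 to 8 for the retinal pigment epithelium (8 without BBC replicate 3), 1 to 6 for pigment cells (6 without MBZ replicate 4), 0 to 4 for vessels (4 without BBC replicate 3 or MBZ replicate 4), 1 to 3 for the matrix, and 0 to 2 for red blood cells. Among the matrix genes, the heparan sulfatase gene *sulf2a* rose by 0.6 (SE 0.09, adjusted p = 0.000702), without overlap.

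The lists of cell division and DNA repair had almost no called members in the fit of all arrays. Of 54 genes of DNA replication and S phase and of 48 genes of mitosis and the spindle, limma called none, with medians of -0.03 and -0.06. At an unadjusted p under 0.05 there were 0 and 1. Without MBZ replicate 1, however, 5 mitosis genes were lower, and without BBC replicate 3 and MBZ replicate 1 together 17 mitosis genes and 5 replication genes were lower. The replication factor genes *pcna* and *mcm5* were at -0.1 (SE 0.18) and 0.01 (SE 0.16), and the mitotic kinase and cyclin genes *cdk1* and *ccnb1* at -0.17 (SE 0.14) and 0.11 (SE 0.16). MBZ replicate 1 stood apart from the other MBZ replicates, with a replication mean of -0.21 against -0.74 to -0.63, while the BBC arrays ranged from -0.69 to -0.29. Of 43 DNA repair and checkpoint genes, *parp3* rose (0.61, SE 0.11, adjusted p = 0.00629), and the kinase genes *atr* (-0.17, SE 0.14) and *chek1* (-0.08, SE 0.23) were not called. None of these 43 genes fell, but 5 were lower without BBC replicate 3 and MBZ replicate 1 together. Of 60 genes of heat shock, the integrated stress response, and oxidative stress 3 rose, *ddit4* (0.52), *sat1a.1* (0.5), and *ppp1r15a* (0.3), and between 0 and 10 were higher with an array left out (0 without BBC replicate 2 and 10 without MBZ replicate 4). The share of this list that rose lies near the 4.67% over all tested genes. Of 34 xenobiotic response genes 3 rose, with *cyp3c1* at 0.52, and of 36 clock genes 4 rose, with *per1b* at 0.53, where the counts with an array left out were 1 to 6 and 1 to 4. Of 81 cytosolic ribosomal protein genes 1 was lower, 4 were without MBZ replicate 1, and 16 were without BBC replicate 3 and MBZ replicate 1 together. Of 72 oxidative phosphorylation genes 1 was higher, and 4 were without MBZ replicate 4.

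Some genes were measured above background in only 1 of the compounds, so that at most a bound on the change can be given. The bound sets the mean of the brighter group against the lowest signal well above background on the arrays of the other. The nicotinic acetylcholine receptor subunit gene *chrnb3b* was above background on all 4 BBC arrays, at -4.5, -4.95, -4.21, and -5.22, and on no MBZ array, and it was at least 4.53-fold lower in MBZ eyes (limma adjusted p = 0.00222). For the secreted factor gene *angptl2a* (limma adjusted p = 3.84e-06) and the adhesion protein gene *iglon5* (adjusted p = 3.36e-07) the same calculation gave 2.26-fold and 1.68-fold lower levels. Each was above background on 3 BBC arrays and on no MBZ array. Their BBC means thus include a signal not well above background, and these values are not lower bounds. With normexp correction of the median pixel signal, the log2 fold changes of these 2 genes were -0.12 and -0.03 and not called. In the other direction, *prr15lb* was above background on all 4 MBZ arrays and on no BBC array and was at least 2.3-fold higher (adjusted p = 0.0109), with MBZ replicate 4 the highest, at -3.92. All 4 genes were found after their values were seen. Their adjusted p values rest in part on signals below background in 1 compound. For *chrnb3b* and *prr15lb* the brighter group could by itself admit the probe to the tests.

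Whether the effect at 36 h differed from that at 12 and 24 h was tested by limma as the difference between the effects in the same fit. For 36 h minus 12 h, 114 probes (0.362%) and 34 genes (0.349%) passed, and for 36 h minus 24 h, 20 probes (0.0635%) and 7 genes (0.0719%) passed. Of these, 4 of the 34 and 2 of the 7 were above background on no 36 h array of a compound, so the size of the difference is not measured for them. Each exposure time has control arrays of its own. At 12 h, 28 genes were higher (0.288%) and 3 lower (0.0308%) in MBZ eyes, and at 24 h, 42 were higher (0.431%) and 5 lower (0.0513%). Of 31 genes called at 12 h, 24 were called in the same direction at 36 h, and of 47 called at 24 h, 38 were. Among the 455 genes that rose at 36 h, 24 had also risen at 12 h and 37 at 24 h, whereas of the 161 that fell none had fallen at 12 h and 1 at 24 h. Adjustment was made separately at each exposure time, and a smaller change can pass where more probes do, as at 36 h. Counts of calls at the 3 exposure times therefore do not share a threshold.

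Several genes with a large rise at 36 h had differed little between the compounds at 12 h. The log2 fold change of *cremb* was 0 at 12 h, 1.29 at 24 h, and 2.57 at 36 h, and that of *atf3* was 0.26, 1.4, and 2.31. For both the difference between 36 and 12 h passed the test (adjusted p = 1.44e-05 and 2.98e-05), and so it did for *cbx7a* (0.33, 0.79, and 2.14, adjusted p = 0.0186) and *lgals9l1* (0.25, 1.14, and 1.57, adjusted p = 0.0461). The falls showed the same order in time, with *plppr5b* at -0.04, -0.24, and -2.31 (adjusted p = 0.0231), *c2cd4a* at -0.04, -0.4, and -1.07 (adjusted p = 0.0186), and *irx4a* at 0.1, -0.3, and -0.89 (adjusted p = 0.114). The kinase gene *syk* was called higher at 12 h (0.52, adjusted p = 0.0274) and lower at 36 h, and its effects differed (adjusted p = 0.0186).

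For other genes no difference between 36 h and the earlier times passed the test. The hormone gene *ghrh* was at 1.53, 2.32, and 2.33 at 12, 24, and 36 h, and was called at 24 and 36 h. The log2 fold change of *bbc3* was 1.9, 1.49, and 1.27 at 12, 24, and 36 h, that of *fosab* 1.44, 1.08, and 1.18, that of *stmn4l* 1.32, 1.31, and 1.54, and that of *mdm2* 0.79, 1, and 0.86. These last 4 genes were called at each exposure time. By list, the genes of apoptosis had 6, 5, and 10 members that rose at 12, 24, and 36 h, and those of macrophages 5, 7, and 25. The ganglion cell list had 0, 1, and 11 members that fell, and the lens crystallins 0, 0, and 7. These counts do not share a threshold, since adjustment was made at each exposure time. For *baxa*, changes of 0.27, 0.19, and 0.22 at 12, 24, and 36 h had limma adjusted p of 0.169, 0.78, and 0.122. Within these lists, the difference from 12 h passed for 4 of the macrophage genes, 2 of the ganglion cell genes, 1 of the crystallin genes, and none of the apoptosis genes.

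**Figure D4:**
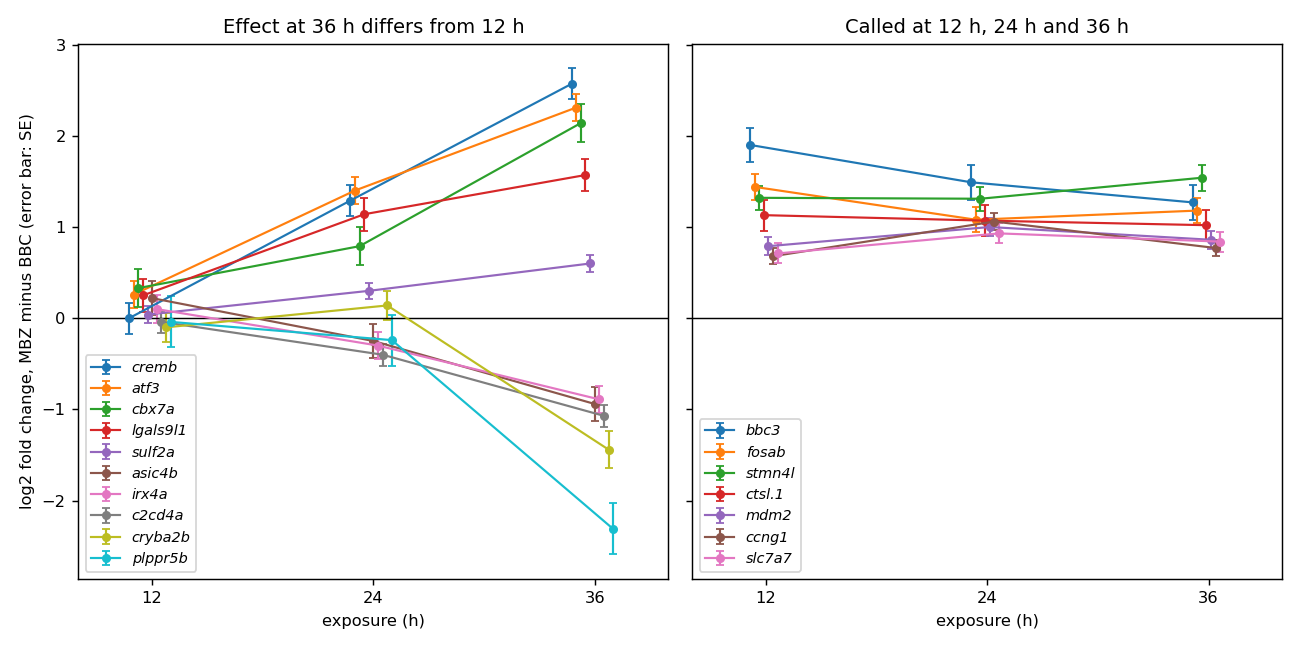
Log2 fold change of MBZ over BBC with its SE at 12, 24, and 36 h, for 10 genes whose effect at 36 h differs from that at 12 h (left) and 7 genes called at all exposure times (right). On the left *cremb* goes from 0 to 2.57 and *plppr5b* from -0.04 to -2.31, and on the right *mdm2* stays between 0.79 and 1.

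Each slide holds 2 arrays of each compound, so that the change can be taken within each. All 455 genes that rose and 160 of the 161 that fell had the same sign within both slides, as did 5417 of all tested genes (55.6%). The calls were made on these same arrays, so shared signs among called genes are no separate test of agreement between the slides. All 616 called genes were also called with the slide as a block, which called 636 genes higher (6.53%) and 278 lower (2.85%). The sizes differed more. Within slide 5 and slide 6 the change was 2.45 and 2.69 for *cremb* and 2.3 and 2.32 for *atf3*, but -2.92 and -1.71 for *plppr5b*, 0.27 and 2.07 for the acyltransferase gene *agpat9l*, and 0.88 and 0.01 for *ddit4*. The glutamate receptor gene *grin1a* was at -0.95 within slide 5 and 0 within slide 6, where BBC replicate 3 was left out for an uneven spot.

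**Figure D5:**
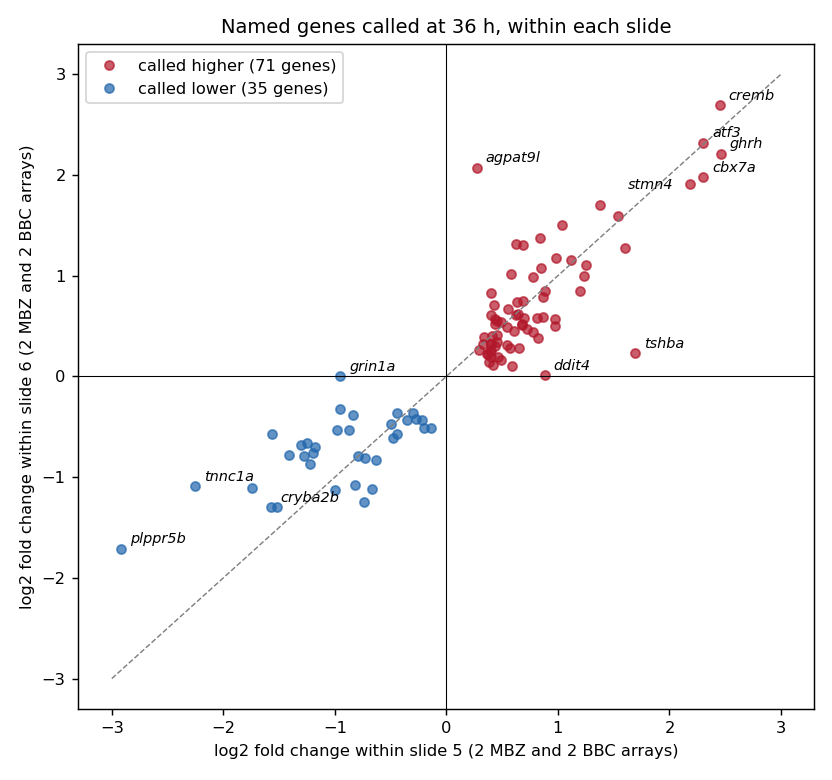
Log2 fold change of MBZ over BBC within slide 5 (x axis) and within slide 6 (y axis) for the 106 called genes that the naming rule chose, each from up to 2 arrays a compound, with a dashed line where both are equal. Some large changes lie near the line, as *cremb* at 2.45 and 2.69, while *plppr5b* (-2.92 and -1.71), *agpat9l*, and *ddit4* lie off it.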

How the data were processed

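RNA from pooled eyes was hybridized in Cy3 to one-colour zebrafish arrays. The deposited scanner output holds intensities, which the authors extracted with Feature Extraction (8.0 in the submitters' processing notes, 10.1.1.1 in the file headers) and did not normalize between arrays. A second deposited table holds log2 values after the authors' normalization between arrays, used here as an alternative. Spots of a probe were averaged, and the background-corrected signal was divided by the 75th percentile over the probes of its array before log2 was taken. Uneven spots were left out, and no spot on the 36 h arrays was saturated. Of 43603 probes, a probe was tested where some condition had it positive, significant, and well above background on each of its 4 arrays, and 31506 gave a value at 36 h. RefSeq accessions named 15163 probes (34.8%), with 10536 names. Genome positions were not used here.

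All 24 arrays entered 1 fit of 6 conditions with 18 residual degrees of freedom in limma 3.58.1 (R 4.3.3, with the data.table package, 1.17.8), with Benjamini-Hochberg adjustment over all tested probes and two-sided tests. Alternatives were quantile normalization, the authors' values, normexp on the median pixel signal (offset 50), other filters, the slide, the replicate number, or array weights in the fit, the 8 arrays alone, and each array left out. The code was tested on simulated data. The number of arrays limits the precision. Members and lists were chosen with earlier results of these data known, and lists are described by counts and medians without a set test. Named by rule were the 10 largest rises and falls without overlap and above background on all 8 arrays, up to 6 called genes of a list (up to 3 in each direction where both occur), the first 2 tested members of a list with fewer than 2 calls, and *mdm2*, *casp8*, *jun*, *fosab*, *ccng1*, and *bbc3*. Further genes of a list, and *pou4f4*, *chrnb3b*, *angptl2a*, *iglon5*, *prr15lb*, and *filip1l*, were named after their values were seen. The lists of thyroid and ear genes and of lipid and sterol metabolism held 0 calls of 5 (limma, none at an unadjusted p under 0.05) and 4 of 54.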

Additional observations from a re-analysis of the deposited data

Results flagged for a closer look

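In 16 of 349 groups of 4 arrays that were screened, 1 array lay far from the other 3, and chance alone flags about 1 in 20 such groups. Among the BBC arrays these were replicate 1 in *crygmxl2* (6.99), *dlx2a* (0.95), *dusp4* (-3.61), and the mean of the thyroid and ear genes (-0.98), replicate 2 in *ghrh* (-6.25), *lim2.3* (3.38), and the mean of the cardiac muscle genes (-1.54), and replicate 3 in *kcnip3a* (1.48), *vim* (3.68), *irf9* (0.08), and the vascular gene *etsrp* (-1.46). Among the MBZ arrays they were replicate 1 in *rrad* (-0.68) and *irx4b* (-1.41), replicate 2 in the complex I gene *ndufs8a* (3.73), replicate 3 in *tmem45b* (0.92), and replicate 4 in *six6b* (2.74). In *irx4b* the other MBZ levels were -2.64, -2.58, and -2.64, and MBZ replicate 1 lay close to the BBC levels of -1.47 to -1.19. In *ghrh* the array apart was a low BBC array, and the other BBC levels lay between -5.35 and -5.32. The 4 arrays apart of BBC replicate 3 were all high and on the array with the most uneven spots at 36 h (540 probes), and what part that plays was not tested.

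The effect of MBZ at 36 h differed from that at an earlier exposure time for 15 of the named genes that were above background in both compounds at 36 h, by limma's test of the difference between the effects. The differences from 12 h in log2 fold change were 2.57 for *cremb*, 2.06 for *atf3*, 1.81 for *cbx7a*, 1.32 for *lgals9l1*, 0.87 for *filip1l*, 0.84 for *gadd45ba*, 0.56 for *sulf2a*, and 0.55 for *ppp1r15a*. Downward they were -2.27 for *plppr5b*, -1.34 for *cryba2b*, -1.16 for *asic4b*, -1.03 for *c2cd4a*, -0.99 for *irx4a*, -0.84 for *syk*, and -0.78 for *pou4f4*. The adjusted p ranged from 1.44e-05 for *cremb* to 0.148 for *asic4b*. The differences from 24 h passed for *cremb* (1.28, adjusted p = 0.0868), *gadd45ba* (0.72, adjusted p = 0.153), *plppr5b* (-2.07, adjusted p = 0.0956), and *cryba2b* (-1.58, adjusted p = 0.0628). For *cryba2b*, 2 of the 4 MBZ arrays at 36 h had an uneven spot and were left out. Each exposure time was hybridized on slides of its own, so the exposure time and the slides cannot be told apart.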

How the results depend on the processing

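The number of probes called at 36 h (1770, 1000 higher and 770 lower) was 331 (199 and 132) at an adjusted p under 0.05, 615 (257 and 358) with a change of at least 1.5-fold, 2684 (1250 lower) with the slide as a block, 3972 (2085 and 1887) with array weights, and 141 (95 and 46) in the fit of 8 arrays, where fewer arrays estimate the spread. Without a filter 657 were higher. With 1 array left out the counts ranged from 636 to 3634 in all, from 350 to 1928 higher, and from 286 to 1706 lower, the lowest without MBZ replicate 3 and the highest without MBZ replicate 4. Without both 36 h arrays of lowest weight, an alternative chosen after seeing the data, they were 4328, 2136, and 2192. Quantile normalization (1992), the authors' values (2335), normexp (1811), and uneven spots kept (1878, also chosen after seeing the data) stayed within 1.5 times.

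Whether the replicate numbers pair the samples is not stated by the labels. At 36 h the correlation of the deviations of MBZ and BBC arrays with the same number was -0.022, 0.154, 0.369, and 0.013. Between arrays of different numbers it ranged from -0.256 to 0.259, and these values do not settle the pairing. With the replicate block within each exposure time 3704 probes (1879 and 1825) were called, and with the replicate block over all times 2423.

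The difference from the 12 h effect (114 probes) was 29 at an adjusted p under 0.05, 52 without a filter, 276 with the slide block, 601 and 259 with both replicate blocks, 1463 with array weights, 336 without both low-weight arrays, and 45 to 589 with 1 array left out. The difference from the 24 h effect (20 probes) was 2, 56 with the authors' values, 33 with normexp, 48 with the slide block, 131 with the replicate block within each time, 586 with array weights, 74 without both low-weight arrays, and 5 to 158 with 1 array left out. The fit of 8 arrays cannot give these differences.

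No result changed direction while called. Of 144 called genes named in the text or by the rule, 109 lost their call in the fit of 8 arrays, 41 without a filter, 37 with normexp, none with the slide block, and between 3 and 68 with 1 array left out. Signal over background limits *chrnb3b*, *angptl2a*, *iglon5*, and *prr15lb*, which were above it in only 1 compound. The causes of these shifts were not tested.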

Other observations

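Called genes of some lists that were given above mostly by count are named here. Over all tested genes 4.67% rose and 1.65% fell. The shares that rose among lipid genes and among amacrine, horizontal, and bipolar cell genes lie near that over all tested genes. These calls are descriptive only. Of 30 pigment cell genes, 4 rose and none fell (limma): the transporter gene *slc22a7a* (0.69, adjusted p = 0.0175, without overlap), *gch2* of pteridine synthesis (0.57, adjusted p = 0.179), *tspan36* (0.43, adjusted p = 0.101), and the melanosome transporter gene *slc45a2* (0.37, adjusted p = 0.0819). Of 36 clock genes, the period gene *per1b* had the largest rise (0.53, adjusted p = 0.00979, without overlap), and the differences from its change at 12 and 24 h did not pass the test (adjusted p = 0.28 and 0.27). The kinase gene *csnk1e* (0.44, adjusted p = 0.171) and the repressor genes *bhlhe41* (0.32, adjusted p = 0.172) and *nfil3* (0.29, adjusted p = 0.19) also rose.

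Of 54 genes of lipid and sterol metabolism, the glycerolipid acyltransferase gene *agpat9l* (1.17, adjusted p = 0.121) and the fatty acid elongase gene *elovl1a* (0.43, adjusted p = 0.15) rose, and the sterol synthesis genes *hmgcra* (-0.4, adjusted p = 0.195) and *lss* (-0.35, adjusted p = 0.112) fell. Among genes of amacrine, horizontal, and bipolar cells, the bipolar cell gene *cabp5b* (1.11, adjusted p = 0.133) and *synprb* (0.6, adjusted p = 0.159) rose, and *onecutl* fell (-0.49, adjusted p = 0.15). The myostatin gene *mstnb*, chosen after its value was seen, rose by 0.61 (adjusted p = 0.00921, without overlap) and was also called in the fit of 8 arrays (adjusted p = 0.102).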
